A study of Sus scrofa with 8 samples.

Results

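CD8 single positive T cells of colostrum, the first milk, were compared with the same sorted population from blood in 2 Large White x Landrace sows. The comparison takes 4 of the 8 samples of the series, 1 colostrum and 1 blood sample from each sow, and covers every gene that the array annotation names with 1 symbol. Mononuclear cells of each fluid were stained with antibodies to porcine CD3, CD4 and CD8, and cells positive for CD3 and CD8 but negative for CD4 were sorted. The other 4 samples are CD4 and CD8 double positive T cells, sorted as CD3+ CD4+ CD8+ from the same fluids of the same sows. From each sample 10 ng of total RNA was amplified, and colostrum cDNA carried the dye Alexa Fluor 3 and blood cDNA the dye Alexa Fluor 5. No dye was swapped, so that the source of the cells and the dye cannot be told apart in any difference given here. The age of the sows is not given in the labels.

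Most CD8 single positive T cells are cytotoxic T cells, which read peptides on MHC class I and kill with granule proteins such as perforin, granzymes and NK-lysin. Resting cells of this kind circulate under factors such as KLF2 and LEF1, which hold them in quiescence and direct them to lymph nodes. Cells that have entered an epithelial tissue or its secretion are mostly antigen experienced, and they carry other chemokine receptors and adhesion molecules. In the pig this gate can also hold CD8-bearing gamma delta T cells. Colostral T cells are taken up by the newborn piglet with the first feeds.

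Before normalization the median probe intensity was 118 and 133 in the colostrum samples and 27 and 34 in the blood samples, and between 28.9% and 35.3% of the probes exceeded the 95th percentile of the 153 negative-control spots, which is called above background here. Levels are given as log2 intensity after normalization, and every difference is colostrum minus blood on the log2 scale. The sort genes fit the label in part. CD3E was at 12.21 and 11.76 in colostrum and 11.95 and 11.98 in blood (sow 1 and sow 2 in each case), a mean difference of 0.02 that was -1.61 after scaling to the 75th percentile and -1.10 after the same scaling with subtraction of the negative controls. CD4 was above background in 1 sample, colostrum of sow 2. CD8B was above background in all 4 samples, at 9.58 and 9.84 against 7.68 and 8.95, and CD8A was at 8.81 and 8.32 against 8.93 and 9.63. Markers of other cells were low: of the 42 tested markers of B cells, monocytes and dendritic cells, neutrophils, mammary epithelium, and red cells and platelets, 2 were above background in all 4 samples, CD79A and GP9. The tested probe of the milk protein gene CSN1S1 was the brightest of them, at 7.36 and 11.38 in colostrum and 5.58 and 8.60 in blood, while its other probes reached at most 7.38 in colostrum and 7.57 in blood.

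Some genes were higher and others lower in the colostrum of both sows, but none passed the test across all genes. Of 3773 genes tested, 126 were at least 2-fold higher in colostrum in both sows (3.34%) and 137 at least 2-fold lower (3.63%), while 98 were at least 2-fold higher in 1 sow and lower in the other (2.6%). After Benjamini-Hochberg adjustment of limma's moderated test 0 genes were called at 0.05, the smallest adjusted p was 0.109 (HSP70.2 and LEF1), and 141 genes (3.74%) were higher and 147 (3.9%) lower at an unadjusted p under 0.05. Scaling each channel to its 75th percentile called 2 genes, normexp background correction 3, and a random block for the sow and population pair 2. Without regard to size, both colostrum samples lay above both blood samples for 609 genes (16.1%) and below them for 814 (21.6%). The genes at least 2-fold in both sows had adjusted p-values from 0.109 to 0.809. The genes described below are therefore patterns in 2 sows, and their values are given as such. Some of these genes had opposite signs in the sows.

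How far bright genes lean to one side depended on the scaling. Among the genes at least 2-fold in both sows 47.9% were higher in colostrum after quantile normalization. Scaling to the 75th percentile gave 304 higher and 556 lower genes (35.3% higher), and the same scaling after subtraction of each channel's negative-control median gave 104 and 439 (19.2% higher). For genes above background in all 4 samples the median difference was -0.09 after quantile normalization and -1.06 and -0.79 under the other 2 scalings, against -0.06, -0.03 and -0.23 for all genes. Among the list medians that turned from positive to negative under both were those of the unfolded protein response (0.04 to -1.02 and -0.62), redox and iron (0.20 to -0.68 and -0.51), the interferon response (0.09 to -0.10 and -0.02) and chemokines (0.18 to -0.15 and -0.08), in the order without and with subtraction.

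**Figure D1:**
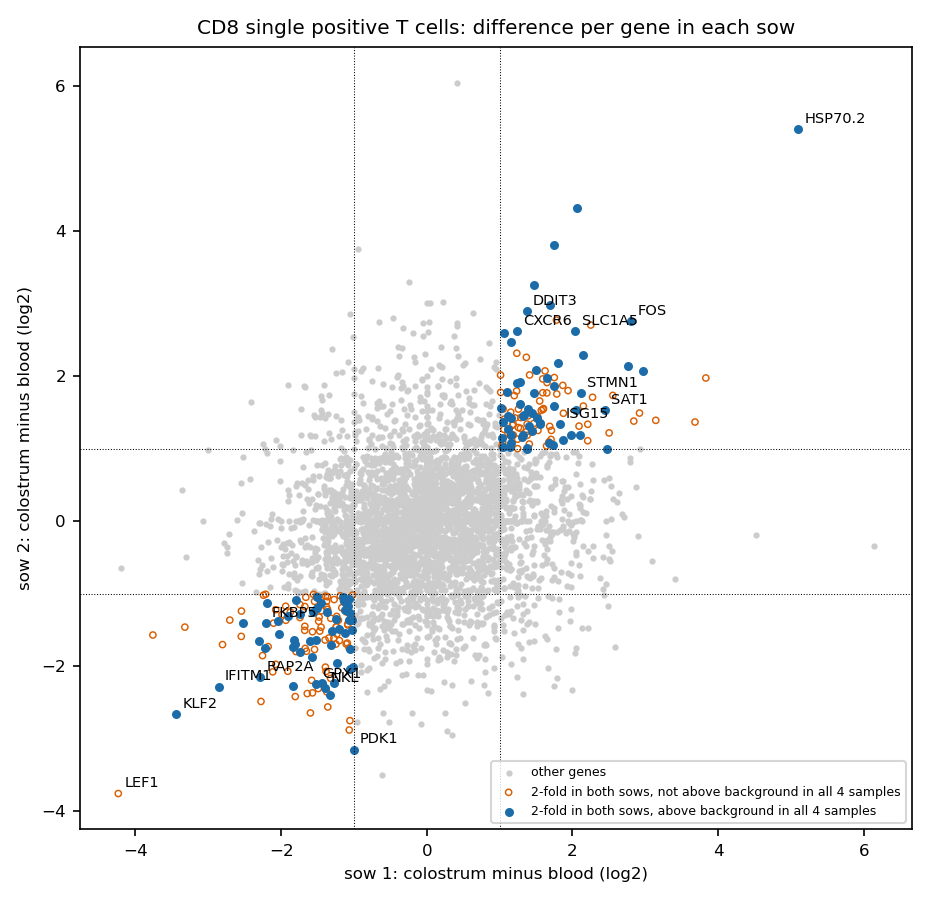
Colostrum minus blood (log2) in sow 1 (horizontal) and in sow 2 (vertical), 1 point for each of 3773 genes. Coloured points were at least 2-fold (dotted lines, 1 on the log2 scale) in the same direction in both sows, filled where the tested probe was above background in all 4 samples and open where it was not.

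By the correlation of whole samples the sows differed from each other about as much as the fluids did. Across genes, which are not independent replicates, the differences of the 2 sows correlated with r = 0.219, and 55.0% of genes had the same sign in both. The median absolute difference between colostrum and blood was 0.65 in sow 1 and 0.56 in sow 2, and the median absolute gap between the sows' differences was 0.72. The gap draws on 4 samples and each difference on 2, so their sizes are not like measures. Over all genes, colostrum correlated with blood of the same sow at 0.867 in sow 1 and 0.883 in sow 2, while the 2 colostrum samples correlated at 0.854 and the 2 blood samples at 0.873. Members of the groups below were chosen with earlier results of these data known, and medians are set beside the median of all genes tested, -0.06.

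Most genes of a set for amino acid supply and the integrated stress response were higher in colostrum. This response slows translation when amino acids are short or proteins misfold, and its factor ATF4 drives the genes of amino acid uptake and CHOP. Of 8 members tested, 6 were higher in both sows, 4 of them at least 2-fold, and 2 were lower in both (24.6% of all genes were higher and 30.4% lower in both). The median difference was 1.66, and 4 of the 8 were above background in all 4 samples and 2 in none. SLC1A5, a glutamine transporter, was at 10.44 and 10.97 in colostrum and 8.40 and 8.35 in blood, a difference of 2.33 ± 0.66 (SE, n = 2 samples a group, limma adjusted p = 0.501). DDIT3, which encodes CHOP, was at 10.61 and 11.48 against 9.24 and 8.58, a difference of 2.14 ± 0.62 (adjusted p = 0.530 by limma). The colostrum samples of both genes were above both blood samples. ATF4 itself was at 11.54 and 12.46 against 9.90 and 10.48, and all 6 of its probes were above background in all 4 samples and higher in both sows, with mean differences from 1.29 to 1.81. SLC3A2, the heavy chain of several amino acid exchangers, was at 8.77 and 8.78 against 6.90 and 7.65, and its second probe gave 0.66. The other 2 probes of SLC1A5 were divided, with 1.90 and 2.06 in the sows for one and 0.03 and 0.14 for the other.

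For the chaperones of the endoplasmic reticulum the median lay near that of all genes. Of 8 genes of the unfolded protein response and folding in that compartment, 3 were higher and 2 lower in both sows, and the median difference was 0.04. The largest was DNAJC3, a co-chaperone that restrains the kinase PERK, at 0.81 and 1.32 in the sows. The lowest was CALR, the lectin chaperone calreticulin, at -1.75 and -0.25. The kinase PERK itself, EIF2AK3, belongs to the first group and was at 2.93 and 1.00, with its probe above background in 1 of 2 blood samples. SLC7A3, a transporter of cationic amino acids that the first group does not hold, was lower in colostrum, at 7.86 and 7.07 against 10.17 and 8.72.

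The group fixed for redox and iron held genes that differed in opposite directions. SAT1, which acetylates polyamines for export or breakdown, was among the brightest genes of colostrum, with 14.69 ± 0.22 in colostrum against 12.70 ± 0.43 in blood (mean ± SD, n = 2), a difference of 1.99 ± 0.48 (n = 2 a group, limma adjusted p = 0.501). All 7 of its probes were above background in all 4 samples and higher in both sows, with mean differences from 0.96 to 1.99. GPX1, the selenium-dependent enzyme that reduces hydrogen peroxide, was lower in colostrum, at 10.16 and 10.24 against 11.69 and 12.48, a difference of -1.88 ± 0.51 (limma adjusted p = 0.501). All 6 of its probes were lower in both sows, from -1.88 to -1.37. Neither gene's groups overlapped. PRDX6, a peroxiredoxin that also acts as a phospholipase, was at 12.77 and 12.66 against 11.38 and 11.11, higher in both sows with all 7 probes, but its difference was -0.16 after scaling to the 75th percentile. CYBA, the membrane subunit p22phox of the NADPH oxidase, was at 9.56 and 8.46 against 11.41 and 10.74. Of the 23 members tested 11 were higher and 6 lower in both sows, and the median was 0.20. The summed level of 10 tested markers of monocytes, macrophages and dendritic cells, which are rich in the NADPH oxidase, was 9.63 and 10.18 in colostrum and 10.28 and 10.23 in blood, none of them was above background in all 4 samples, and their part in these results was not tested.

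**Figure D2:**
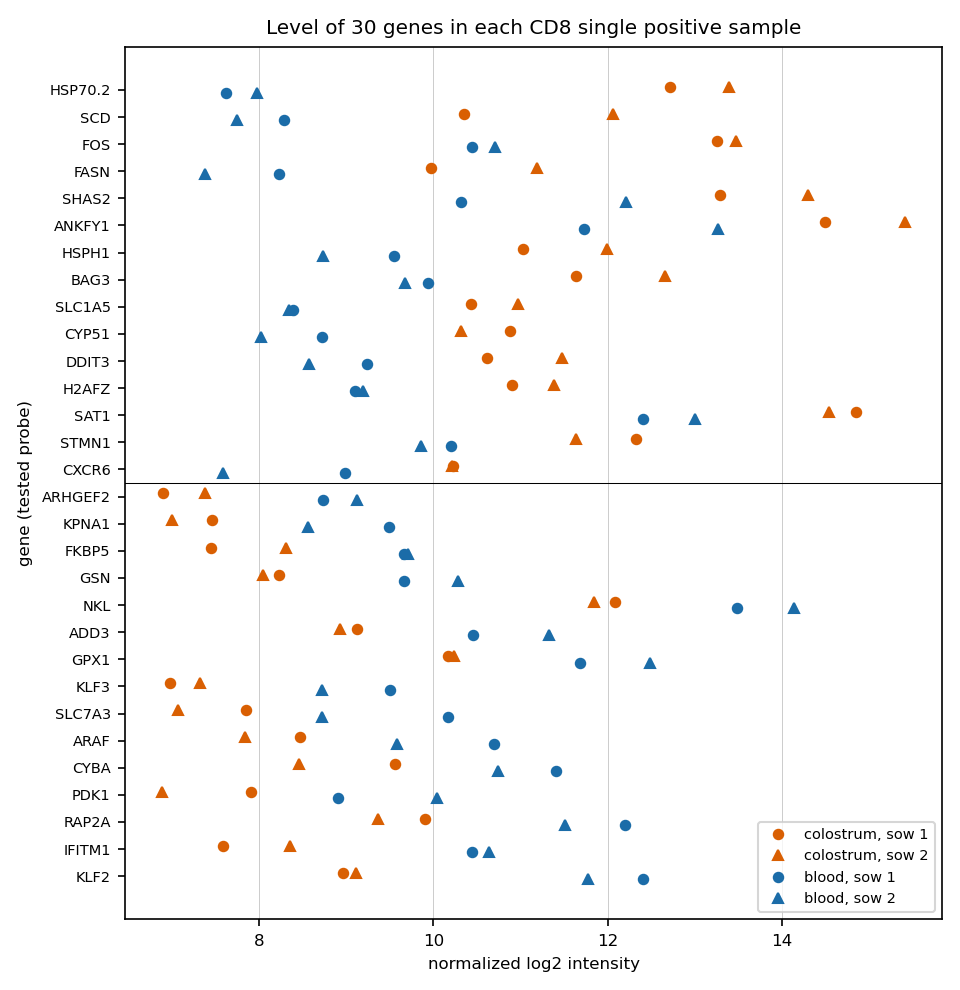
Normalized log2 intensity in each CD8 single positive sample for the 15 genes with the largest positive and the 15 with the largest negative mean difference among genes above background in all 4 samples and at least 2-fold in both sows. Each gene has 1 tested probe, and in all 30 genes both colostrum points (orange) lie on the same side of both blood points (blue). The choice of these genes by size in both sows favours such a separation. Of all genes tested, 16.1% lay above and 21.6% below without overlap.

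Genes of the cell cycle and of growth control differed in both directions. CDKN1B, the cyclin-dependent kinase inhibitor p27, was at 8.72 and 8.85 against 10.47 and 10.66, a difference of -1.78 ± 0.49 (n = 2 a group, limma adjusted p = 0.501). PDCD4, an inhibitor of the helicase eIF4A, was at 9.55 and 9.05 against 11.08 and 10.69, and its 4 measured probes were all lower in both sows, from -1.58 to -0.95. PIK3IP1, an inhibitor of phosphoinositide 3-kinase, was at 8.18 and 8.83 against 10.37 and 9.95. All 3 genes had both colostrum samples below both blood samples. STMN1, the microtubule destabiliser stathmin, was higher, at 12.32 and 11.64 against 10.21 and 9.86, and both of its measured probes were at least 2-fold higher in both sows. H2AFZ, the histone variant H2A.Z, was at 10.90 and 11.38 against 9.10 and 9.19, with all 4 probes at least 2-fold higher in both sows. GADD45A, a stress-induced gene that arrests the cycle, was at 9.27 and 9.99 against 7.52 and 8.12. Across the list of cell cycle and DNA replication 7 of 20 genes were higher and 4 lower in both sows, with a median of -0.01. The mitotic genes AURKA, CCNB2 and PLK1 had opposite signs in the sows.

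KLF2, KLF3 and LEF1 were lower in colostrum in both sows. KLF2, which drives exit from lymph nodes and quiescence, was at 8.96 and 9.11 against 12.40 and 11.77, a difference of -3.05 ± 0.48 (n = 2 a group, limma adjusted p = 0.145). Its relative KLF3 was at 6.98 and 7.32 against 9.50 and 8.72, and the second measured probe gave -0.46 and -0.72 in the sows. LEF1, a Wnt-dependent factor of naive T cells, was at 6.32 and 6.97 against 10.56 and 10.72, above background in 1 of 2 colostrum samples. Of the 17 lymphocyte transcription factors tested 10 were lower and 5 higher in both sows, with a median of -0.39. IL7R, the receptor chain for the survival cytokine interleukin 7, was lower with both probes, at -1.24 and -1.34 with the tested one, while IL2RG, the chain it shares with other cytokine receptors, was at 1.31 and 1.16. CD40LG, a ligand induced by activation, was at 7.73 and 7.26 against 9.29 and 8.51. TXK, a Tec-family kinase of T cell receptor signalling, was at 7.16 and 7.39 against 8.67 and 8.59.

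Some signalling genes outside these groups were as far apart. FKBP5, a co-chaperone induced by glucocorticoids, was at 7.45 and 8.31 in colostrum and 9.66 and 9.71 in blood, and its 3 probes were all lower in both sows, from -1.89 to -1.10. KLF9, another gene known to respond to glucocorticoids, was at -1.03 and -0.60 in the sows, and the glucocorticoid receptor gene NR3C1 at 0.85 and 0.82, with a mean of -0.11 after scaling to the 75th percentile. Among the 16 genes listed for steroid and prolactin signalling 3 were higher and 2 lower in both sows. RAP2A, a small GTPase of the Ras family, was at 9.91 and 9.36 against 12.20 and 11.50, and ARAF, a Raf kinase, at 8.47 and 7.84 against 10.70 and 9.59. RASA2, which switches Ras off, was at 8.31 and 8.97 in colostrum and 6.06 and 6.26 in blood by its tested probe, which was not above background in blood, a difference of 2.48. Its other 3 probes were higher in both sows as well, and 1 of them was above background in blood of sow 2. PDK1, a kinase that inhibits pyruvate dehydrogenase, was at 7.91 and 6.89 against 8.91 and 10.04. Its difference of -3.15 in sow 2 was the larger, and that in sow 1 lay just inside the 2-fold limit.

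Adhesion molecules were lower or divided between the sows, and none of the 16 tested was higher in both. Of these genes 8 were lower in both sows, 4 of them at least 2-fold, and the median was -0.50. SELPLG, the P-selectin ligand on which leukocytes roll, was at 7.32 and 7.47 against 8.38 and 9.50. ICAM2, a ligand of the integrin LFA-1, was at 8.72 and 7.66 against 9.94 and 9.61. The integrin chain ITGB2 was above background in 1 colostrum sample, and ITGA5, the fibronectin receptor chain, in neither by its tested probe, with a difference of -2.09. The other 2 probes of ITGA5 were above background in 1 colostrum sample each and were also lower in both sows, by mean differences under 1. The chain ITGAL of LFA-1 had opposite signs, 2.04 and -1.82.

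FLNA, VCL and ADD3, which link actin to the membrane, were lower in colostrum. FLNA, which crosslinks actin to integrins, was at 8.73 and 8.63 against 10.05 and 10.33, a difference of -1.51 ± 0.49 (n = 2 a group, limma adjusted p = 0.544), and both measured probes were at least 2-fold lower in both sows. VCL, or vinculin, was at 9.03 and 8.87 against 10.60 and 10.74, with 2 of 3 measured probes at least 2-fold lower. ADD3, a cap of the membrane skeleton, was at 9.13 and 8.93 against 10.45 and 11.33, with 4 of 4 measured probes lower, from -2.10 to -1.25. ACTB was at 0.99 and 0.54 in the sows, with a mean that turned to -1.23 and -0.69 under the 75th percentile scalings without and with subtraction. TMSB10, a thymosin that binds free actin, was at 1.05 and 1.03, and its mean turned to -0.87 and -0.33. Of 25 cytoskeletal genes 8 were higher and 7 lower in both sows, with a median of 0.00. Platelets carry much filamin and vinculin. GP9, a platelet glycoprotein, was at 7.98 and 7.87 in colostrum and 9.10 and 9.09 in blood, and the summed level of 6 red cell and platelet markers was 9.35 and 9.63 against 10.03 and 10.06. The second probe of GP9 gave -0.44 and 0.14 in the sows. ITGA2B and TUBB1, which define platelets, were above background in 2 and 1 of the 4 samples. ITGA2B was at -1.56 and 0.02 in the sows, TUBB1 at 0.88 and 0.29, and GP1BB, another platelet marker, at -0.43 and 0.45. The part of platelets in these differences was not tested.

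**Figure D3:**
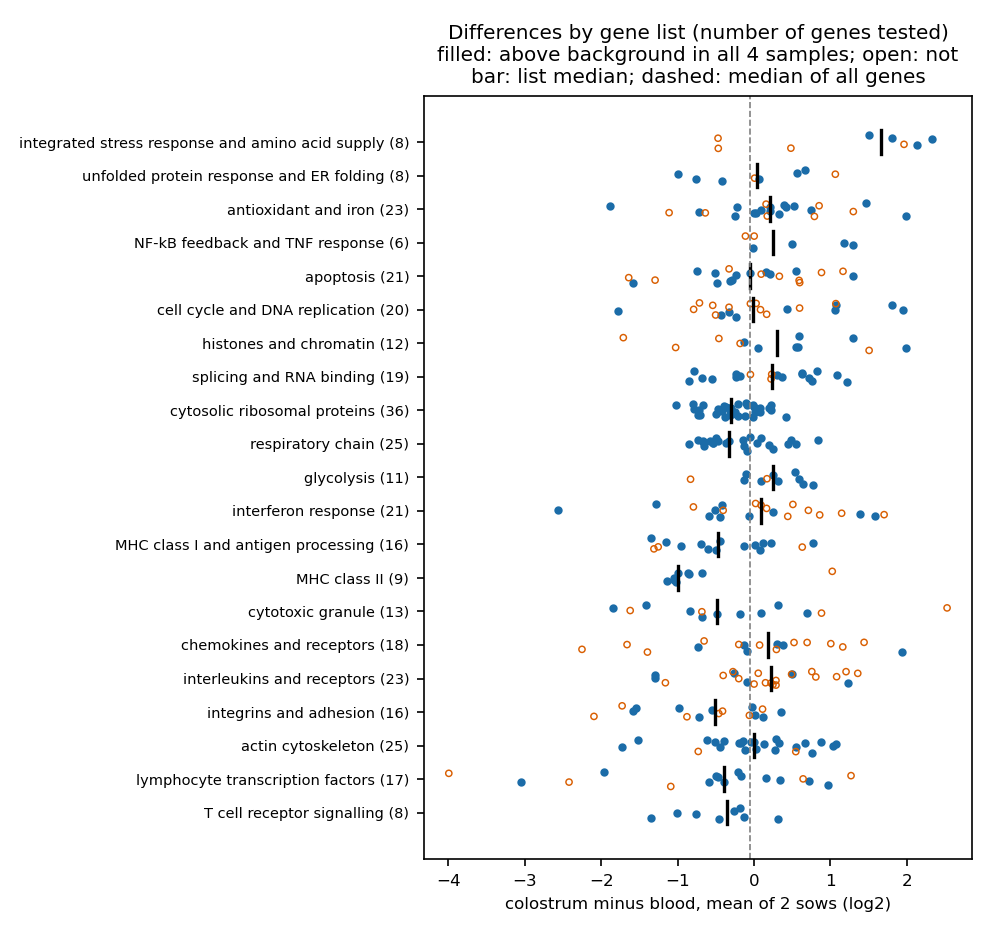
Mean colostrum minus blood difference of the 2 sows (log2) for each tested gene of 21 gene lists, filled where the tested probe was above background in all 4 samples. The black bar is the median of a list and the dashed line that of all genes tested, and the list of the integrated stress response lies farthest to the right and MHC class II farthest to the left.

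MHC class II genes were lower in colostrum in most cases. Pig T cells, unlike those of mice, can carry MHC class II on their surface after activation. Of 9 genes tested 7 were lower in both sows, none of them at least 2-fold in both, and the median was -0.99. SLA-DQB1 was at 10.90 and 11.89 against 12.38 and 12.68, and CD74, the invariant chain, at -0.90 and -0.80 in the sows. The median of the 9 genes was -0.40 in sow 1 and -1.37 in sow 2. B cells and antigen-presenting cells also carry these genes. The 2 tested B cell markers, CD79A and CD72, summed to 7.94 and 9.18 in colostrum and 8.94 and 8.96 in blood, and their part was not tested. Members of the class II family are near-identical in places and can share signal between probes.

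Genes of class I presentation were divided. PSMB8, a subunit of the immunoproteasome, was at 9.24 and 8.59 against 10.44 and 10.08, and its 3 probes were all lower in both sows, from -1.34 to -0.63. Its partners PSME1 and PSMB9 were at -0.75 and -1.55, and at -0.53 and -1.38, in the sows. PSME2, which forms a ring with PSME1, was at 0.76 and 0.79, and the light chain B2M at 0.39 and -0.15, with a mean of 0.12 that turned to -1.64 and -1.11 under the 75th percentile scalings without and with subtraction. Over the list 9 of 16 genes were lower and 3 higher in both sows, and the median was -0.47.

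Genes of the interferon response differed in both directions. ISG15, a ubiquitin-like modifier, was at 13.74 and 12.18 against 11.92 and 10.83, and its mean difference of 1.58 became -0.10 after scaling to the 75th percentile. IFIH1, the RNA sensor MDA5, was at 8.80 and 8.88 against 6.71 and 7.57, but a second probe gave 0.49 and -0.09. MX1, an antiviral GTPase, was at 8.95 and 8.34 against 7.27 and 7.26. In the opposite direction, IFITM1, a membrane protein that blocks viral entry, was at 7.59 and 8.36 against 10.45 and 10.64, a difference of -2.57 ± 0.56 (n = 2 a group, limma adjusted p = 0.501). IRF3, which starts interferon production, was at 7.57 and 7.52 against 9.02 and 8.64. IFITM1 belongs to a family of near-identical genes. Of the 21 genes tested 7 were higher and 8 lower in both sows (24.6% and 30.4% of all genes), and the median was 0.09.

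Cytotoxic genes also divided, and the granzymes were not all on the same side. NKL, which encodes NK-lysin, was among the brightest genes of blood and was at 12.08 and 11.84 in colostrum and 13.48 and 14.14 in blood, a difference of -1.85 ± 0.65 (n = 2 a group, limma adjusted p = 0.586). GZMH was at 11.32 and 11.82 against 12.37 and 13.59, and both of its probes were lower in both sows. GPR56, an adhesion receptor of cytotoxic effector cells, was at 8.97 and 10.16 against 10.24 and 12.39. For GPR56 the higher colostrum sample lay just below the lower blood sample. PRF1, or perforin, was at -0.46 and -0.49 in the sows, and GZMB at 0.51 and 0.87, with a mean that turned to -0.65 and -0.18 under the 75th percentile scalings without and with subtraction. GZMA was above background in both colostrum samples, at 9.03 and 8.06, and in neither blood sample, at least 3.06-fold higher, while its second probe gave 1.89 and 0.28. Granzymes are near-identical in stretches and can share signal. Over the list 7 of 13 genes were lower and 3 higher in both sows. The summed level of 6 tested markers of NK and gamma delta T cells was 11.93 and 11.83 in colostrum and 11.59 and 12.77 in blood, and their part was not tested. GPR56 was the only one of them lower in both sows. FCER1G, the Fc receptor gamma chain, was at 1.75 and 1.99 in the sows, and KLRK1, the receptor NKG2D, at 0.96 and 0.40. The mean of KLRK1 turned from 0.68 to -0.68 and -0.20 under the 75th percentile scalings without and with subtraction. In bulk samples, fewer cells of a type and less RNA for each cell cannot be told apart.

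Chemokine receptors differed in both directions. CXCR6, a receptor of tissue-resident T cells, was at 10.22 and 10.22 in colostrum and 8.98 and 7.59 in blood, a difference of 1.93 ± 0.58 (n = 2 a group, limma adjusted p = 0.533). CCR7, which directs cells to lymph nodes, was at 6.50 and 7.23 against 9.30 and 8.92, above background in 1 colostrum sample. CXCR4 was at -0.07 and -0.12. CCR1 was at -1.24 and -1.55 by its tested probe, above background in 1 blood sample only, and at 0.68 and 1.25 by its second probe. The mean difference was -1.66 for CCR6 and 0.70 for CCR2. The chemokine XCL1, made by activated CD8 T cells, was at 2.07 and 0.81 in the sows, and CCL5 at 0.30 and 0.44, with a mean that turned to -1.29 and -0.77 under the 75th percentile scalings without and with subtraction. Of 18 genes 8 were higher and 6 lower in both sows, with a median of 0.18. Receptors of extracellular nucleotides also stood apart from each other. P2RX7, an ATP-gated channel, was above background in colostrum and not in blood, at least 1.24-fold higher, and ADORA2A, an adenosine receptor that restrains T cells, was at 7.46 and 7.68 against 8.61 and 8.72.

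Early response genes differed among themselves, and the brightest of those named were higher in colostrum. FOS, a subunit of the factor AP-1, was at 13.25 and 13.47 against 10.44 and 10.71, a difference of 2.78 ± 0.54 (n = 2 a group, limma adjusted p = 0.419), and all 4 probes were at least 2-fold higher in both sows. BRD2, a reader of acetylated histones, was at 13.73 and 14.19 against 12.23 and 12.09 with both measured probes at least 2-fold higher, a difference that vanished after scaling to the 75th percentile, at -0.00067. NFKB1, the p105 precursor of NF-kB, was at 1.70 and 0.90 in the sows. Its inhibitor NFKBIA was at 1.16 and 1.20, with other probes at -1.16 and 0.38 and at -0.46 and 1.51, and its mean was -0.50 after scaling to the 75th percentile. The nuclear receptors NR4A2 and NR4A3 were at 0.85 and 0.64, and at 0.70 and 0.71, and their means turned to -0.75 and -0.71 after scaling to the 75th percentile. CD69, an early activation marker, was at -0.68 and 0.23. The heat shock gene HSP70.2 had the largest difference of all genes above background in all 4 samples, at 12.72 and 13.39 against 7.62 and 7.97. Of the 9 heat shock genes tested 6, and of the 11 genes of sterol and fatty acid synthesis 4, were at least 2-fold higher in both sows.

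Large complexes showed small and mostly even differences after quantile normalization, and these depended on the scaling. Of 36 cytosolic ribosomal protein genes 22 were lower and 2 higher in both sows, none by 2-fold with the tested probe. The median was -0.30, and RPL10A was lowest, at -1.06 and -0.99. All 9 probes of RPL10A were above background in all 4 samples and lower in both sows, 6 of them at least 2-fold. Of 25 respiratory chain genes 12 were lower and 5 higher, with a median of -0.33. Under the 75th percentile scalings without and with subtraction the ribosomal genes ran from RPL11 (-1.48 and -0.96) to RPL10A (-2.77 and -2.25). Of the respiratory chain genes, COX7C went from -0.67 to -2.09 and -1.65, and ATP5G1 from 0.84 to -0.63 and -0.12. Genes above background in all 4 samples had medians of -1.06 and -0.79 there. Among 19 splicing and RNA-binding genes 9 were higher and 5 lower, with a median of 0.23 that turned to -0.97 and -0.44 under the 75th percentile scalings without and with subtraction. SRSF2, a splicing factor of the SR family, was at 1.05 and 1.37 in the sows, and TRA2B, which acts with SR proteins, at 0.82 and 1.34. For SRSF2 the mean turned to -0.75 and -0.22 under these scalings, and for TRA2B to -0.21 without subtraction.

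Different probes of a gene gave a check within the arrays, although they read the same RNA. Of the 10278 named probes 28.3% were above background in all 4 samples, 248 (2.41%) were at least 2-fold higher in both sows and 274 (2.67%) at least 2-fold lower. For 33 of the higher genes 85 other probes were above background in all 4 samples; 68 of them (80.0%) were higher in both sows, 31 (36.5%) at least 2-fold, and 2 were lower in both. For 20 of the lower genes there were 31 other probes, of which 29 (93.5%) were lower in both sows and 11 (35.5%) at least 2-fold. Among genes not at least 2-fold in both sows, 50.6% of 1496 other probes had the sign of the tested probe in both sows and 2.87% were at least 2-fold. Of 550 genes with 2 or more probes above background in all 4 samples, 8 had every such probe at least 2-fold higher (FOS, H2AFZ, HSP90AA1, SCD, CYP51, STMN1, BRD2 and DNAJB1, of which BRD2 and DNAJB1 turned in direction after scaling to the 75th percentile) and 2 at least 2-fold lower (FLNA and PIK3R5). PIK3R5, the regulatory subunit of a phosphoinositide 3-kinase of leukocytes, was at 8.91 and 8.60 against 10.20 and 10.11.

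**Figure D4:**
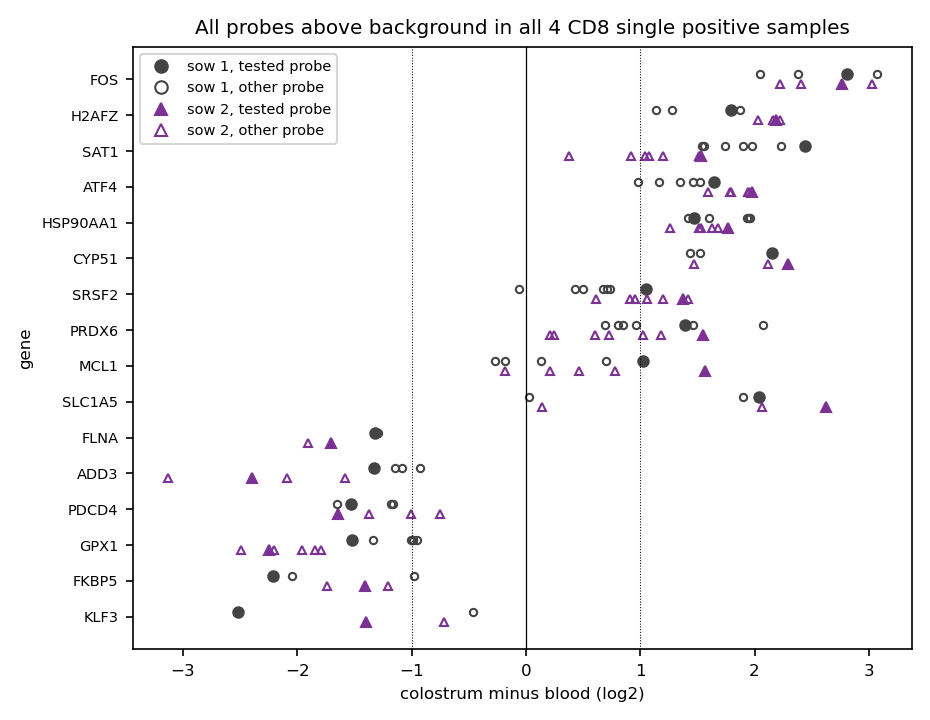
Colostrum minus blood (log2) of every probe above background in all 4 samples for 16 of the named genes, in sow 1 (circles) and sow 2 (triangles), with the tested probe filled. The probes of FOS, H2AFZ, GPX1 and ADD3 lie on 1 side of 0 in both sows, and those of MCL1 spread across 0 in both; after scaling to the 75th percentile PRDX6, MCL1 and SRSF2 turned negative.

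Some tested probes were above background in 1 fluid only. Of all tested probes 70 were above background in both colostrum samples and in no blood sample, 8 of them at least 2-fold higher as a lower bound, and 74 in both blood samples and in no colostrum sample, 18 of them at least 2-fold lower. Beside RASA2 and GZMA, the genes above background in colostrum only include NCAPD2, a subunit of the condensin complex. NCAPD2 was at 10.38 and 6.86 in colostrum and 5.85 and 7.05 in blood, so that it was higher in sow 1 only. BRCA1, the DNA repair gene, was at 8.57 and 7.54 in colostrum, at least 2.18-fold higher. The lower ones include ADIPOR1, an adiponectin receptor (a difference of -2.07 by its tested probe), CEP250, a centrosome linker (at least 3.54-fold lower), BSG, the surface glycoprotein basigin (at least 2.81-fold lower), UBA3, an enzyme of neddylation (at least 2.80-fold), and SMAD2, a transducer of TGF-beta (at least 2.46-fold). PTPN2, a phosphatase that restrains cytokine signalling, was at -1.44 and STAT6, the factor of interleukin 4 signalling, at -1.56 by their tested probes. The second probes of PTPN2 and STAT6 were above background in 1 colostrum sample each and gave 0.59 and 0.40, and -0.65 and -0.41, in the sows. The second probe of ADIPOR1, above background in all 4 samples, gave -0.45.

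The double positive cells of the same sows gave a second comparison of colostrum with blood, with other samples but the same dyes, and the labels do not say which samples shared an array. Of the 126 higher genes 37 were at least 2-fold higher in both sows there too, which is 29.4% of them and 37.8% of the 98 genes higher in double positive cells (2.6% of all genes tested). Of the 137 lower genes 33 were shared, 24.1% of them and 17.8% of the 185 lower in double positive cells (4.9%), and 0 genes were at least 2-fold in opposite directions. Restricted to probes above background in all 4 CD8 single positive samples, 57 of 1297 genes were higher (4.39%) and 51 lower (3.93%) in CD8 single positive cells. Of these, 32 higher and 16 lower genes were shared. The share of the 1297 genes at least 2-fold in double positive cells was not computed, so these counts have no base beside them. SLC1A5 was at 3.88 and 3.15 in the double positive cells of the sows, CXCR6 at 3.34 and 2.12, GPX1 at -1.58 and -2.48 and NKL at -1.94 and -1.91. No gene passed the test of the difference between the populations by limma (smallest adjusted p = 0.997), with 62 genes (1.64%) higher and 25 (0.663%) lower in CD8 single positive cells at an unadjusted p under 0.05. STMN1 was at 0.65 and -0.16 in double positive cells, 1.70 ± 0.70 (SE, n = 2 a group) below its difference in CD8 single positive cells, with an adjusted p of 0.997 by limma. ITGA5 was at -0.02 and -0.57 there, and LEF1 at -0.80 and -2.62. A p that misses the threshold in 2 sows does not show that the populations were alike.

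**Figure D5:**
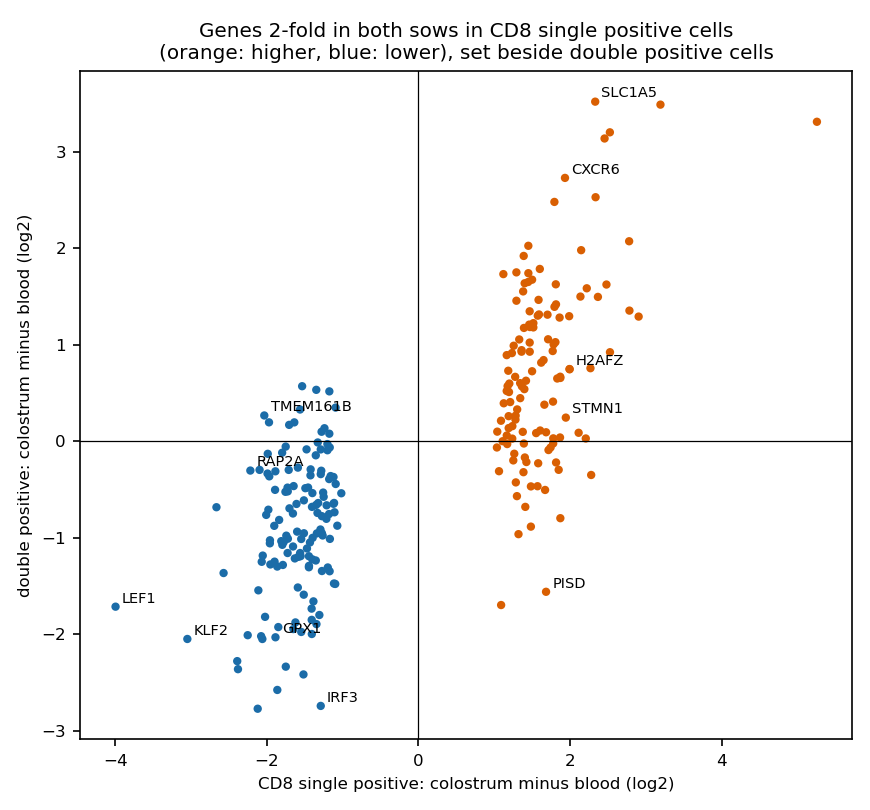
Mean colostrum minus blood difference (log2) in CD8 single positive cells (horizontal) and in double positive cells (vertical) for the 126 genes at least 2-fold higher (orange) and the 137 at least 2-fold lower (blue) in both sows in CD8 single positive cells. Genes near the horizontal line, such as STMN1, differed little in double positive cells, and PISD lay in the opposite direction.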

How the data were processed

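Each deposited sample file pairs 45220 spots with an intensity, a whole number that can lie below 0, and has no header. How the arrays were scanned and corrected for background is not given in the sources used here. A deposited matrix of log2 values was an alternative (79.0% of its 338770 values lay within 0.01 of quantile-normalized log2 intensities made here). The 8 channels were quantile normalized over 43603 probes, floored at 40.6 and log2 transformed. The annotation named 10278 probes. Probes above the 30th percentile of mean level were kept, and a gene was read by its brightest, which gave 3773 of 4560 genes. limma 3.58.1 in R 4.3.3 was fitted to 4 group means, with Benjamini-Hochberg adjustment, and was tested on simulated data. The number of arrays limits the precision. The p-values rest on the spread between 2 sows within each of the 4 groups, moderated across genes, and the main fit does not pair the samples by sow.

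A probe above background in neither sample of a group has only a bound, given as "at least", from the bright group's mean against, for each dim sample, the higher of the detection threshold and its own value. Where another probe of the gene was above background there, the difference is given instead. Replicate numbers name the sow, so they pair the samples, whose deviations from the group means correlated at 0.284 in CD8 single positive and 0.219 in double positive cells. Members, lists and tests were chosen with earlier results of these data known. The genes named were the largest differences in each direction, genes whose probes all differed, list members at least 2-fold in both sows or else the extremes, the largest population differences, sort genes, detected markers of other cells and the largest bounds. Others named were chosen after their values were seen.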

Additional observations from a re-analysis of the deposited data

Results flagged for a closer look

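In 12 of the named genes both sows differed one way in CD8 single positive cells and the other way in double positive cells, and no such gene passed the test of that difference by limma (adjusted p of 0.997 for each). The named genes include those with the largest population differences, so most of these 12 were picked on this same value. The share of all genes tested that differed in this way was not computed, and the count of 12 is not a result about it. The difference of the 2 comparisons (CD8 single positive minus double positive, log2) was 3.24 for PISD, 2.90 for CLN3, 2.84 for UCHL3, 2.79 for SHC1, 2.37 for CYTH2, 1.77 for SLA-DOA, 1.76 for VEGFA and 1.37 for NPC1. It was -2.64 for RAE1, -2.56 for ZNF687, -2.30 for TMEM161B and -2.10 for LOC100154647. PISD, a mitochondrial enzyme that makes phosphatidylethanolamine, was at 1.59 and 1.78 in CD8 single positive cells and at -2.16 and -0.96 in double positive cells. RAE1, an mRNA export factor, was at -2.14 and -0.50 against 1.14 and 1.50. By their tested probes SHC1, RAE1 and ZNF687 were above background in all 8 samples, the other genes in some, and no group of samples held enough sows for a test of outlying samples. All 4 probes of SHC1 were above background in all 4 CD8 single positive samples, but only the tested one was higher in both sows. Another was lower in both, at -0.40 and -0.39. For RAE1 3 of 4 such probes were lower in both sows.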

How the results depend on the processing

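Of 130 named genes under 19 alternatives each, 2424 of 2470 differences kept their direction and their side of the threshold. Alternatives that changed only the fit, or left out a double positive sample, could not change a difference. As 0 genes were called in the main fit, none could lose its call, so this count is no measure of how firm the differences are. Genes called numbered 2 after scaling to the 75th percentile (KLF2 and LEF1), 3 after normexp correction (these and HSP70.2), and 0 to 1 with a sample left out, HSP70.2 being called without either colostrum double positive sample. The sow as a fixed replicate block called 0 (smallest adjusted p = 0.185), and a random replicate block for each pair of samples called 2 (HSP70.2 and LEF1, adjusted p = 0.049). The block changed no other call. Genes at least 2-fold higher in both sows numbered 304 after scaling to the 75th percentile, 60 after normexp and 81 with the mean of a gene's probes. Lower ones numbered 556, 62 and 89, and 439 after scaling with subtraction, a setting chosen after seeing the data. Scaling to the 75th percentile reversed ATP5G1 (-0.63), BRD2 (-0.00067), CD3E (-1.61), DNAJB1 (-0.094), ISG15 (-0.097), M6PR (-0.65), MCL1 (-0.15), NFKBIA (-0.50), PRDX6 (-0.16), RPLP1 (-1.65), SRSF2 (-0.75), TMSB10 (-0.87) and TPI1 (-0.46). With subtraction it reversed ATP5G1 (-0.12), CD3E (-1.10), M6PR (-0.29), RPLP1 (-1.11), SRSF2 (-0.22), TMSB10 (-0.33) and TPI1 (-0.017). The mean of all probes reversed CD3G (0.032), CLN3 (-0.018), ENTPD1 (-0.25), KLF4 (0.31), M6PR (-0.20) and RPLP1 (-0.16), the detection filter CCR1 (0.97) and cyclic loess TLR4 (-0.57). With a sample left out the values ran from -1.13 to 0.24 for CD247, -0.55 to 0.36 for CD3D, -0.20 to 0.24 for CD3E, -0.82 to 0.060 for CD3G, 0.00 to 1.59 for CD4 and -0.76 to 1.61 for M6PR. The cause of these changes was not tested. Many small differences are limited by probes near background.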
